A study of Homo sapiens with 8 samples.

Results

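Oxidative phosphorylation genes encode the subunits of the respiratory chain complexes I, II, III and IV and of the ATP synthase, complex V. They were taken by symbol from release 29 of the GENCODE annotation, a rule that uses no measured value, although the set itself was chosen with earlier results of these data known. Symbols that begin with NDUFA, NDUFB, NDUFC, NDUFS or NDUFV and end in a number gave the nuclear genes counted as complex I. SDHA to SDHD gave complex II, and the stems UQCR, COX4 to COX8 and ATP5 gave complexes III, IV and V. Complexes were assigned by symbol alone, so NDUFA4, whose protein belongs to complex IV, is counted in complex I. MT-ND, MT-CYB, MT-CO and MT-ATP gave the protein genes of the mitochondrial genome. The rule found 101 genes, of which 99 were in the table of 19431 genes, 13 of them mitochondrial and 86 nuclear. UQCRHL and ATP5MF-PTCD1 were not analysed here. Complex I had 44 of these genes, complex II 4, complex III 9, complex IV 20 and complex V 22.

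RNA-seq had been carried out on LNCaP-FGC, an androgen-responsive human prostate cancer cell line, after 24 h of treatment. One group received A-485, which blocks the acetyltransferase activity of the coactivators p300 and CBP, together with I-CBP112, which occupies their acetyl-lysine-binding bromodomain. Other groups received A-485 alone, I-CBP112 alone, or DMSO, the solvent control. Each group held 2 libraries, numbered 1 and 2, and the sources used here give no doses. Nothing in the labels places the libraries of a group in separate cultures, so the p-values reflect a spread between samples that may be technical. The 4 groups share 1 cell line, and its summed luminal prostate markers lay between 1821 and 5854 scaled FPKM in every library.

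The respiratory chain passes electrons from NADH (complex I) and succinate (complex II) through coenzyme Q, complex III and cytochrome c to oxygen at complex IV. Complexes I, III and IV pump protons across the inner mitochondrial membrane, and the ATP synthase uses the returning protons to make ATP. Complex II is wholly nuclear-encoded, while the other complexes join nuclear subunits to some encoded by mitochondrial DNA, so their genes are read by separate transcription machineries. Luminal prostate cells are known for exporting citrate, which normal cells do at the expense of the citric acid cycle, whereas prostate cancer cells oxidise it.

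Levels are in FPKM, a number of fragments divided by transcript length and by library depth, summed over the transcripts of a gene. For the tests, libraries were brought to a common sum of 1e+06 and adjusted by a trimmed mean of log ratios, which gave the scaled FPKM. A call is an adjusted p under 0.05 in limma over the 11874 genes tested. A ± sign after a log2 fold change is a standard error and after a share an SD, with 2 libraries per group throughout. Libraries numbered 1 held an estimated 14.2 to 25.2 fragments on the table, in units of 1e+06, and those numbered 2 held 3.91 to 11.9. These were 77.3 to 83.7% of the fragments that had normalized the libraries numbered 1, and 18.0 to 41.6% of those for the libraries numbered 2.

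The members that passed the filter of 1 scaled FPKM in at least 2 libraries numbered 93, of which 13 were mitochondrial and 80 nuclear. The 6 others, COX4I2, COX6A2, COX6B2, COX7A1, COX8C and ATP5MGL, stayed at or below 0.532 scaled FPKM in every library, and COX6A2 and COX7A1 were listed at 0 in all 8. COX6A2 and COX7A1 are the heart and skeletal muscle forms of their subunits, COX4I2 is a lung form, and COX6B2 and COX8C are testis forms. The corresponding broadly expressed forms were abundant. With DMSO, COX7A2 had 1489.9 and 1634 scaled FPKM, COX8A 1930.2 and 1165, COX6B1 1275 and 1185, COX4I1 1201 and 925 and COX6A1 1182 and 911. COX7B2, a testis form, was measured at a low level, with 22.1 and 28.5 scaled FPKM with both compounds, 13.1 and 21.5 with A-485, 18.6 and 25.6 with I-CBP112 and 10.5 and 22.9 with DMSO. It overlapped DMSO in each treatment.

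The 13 mitochondrial genes held a larger part of each library than the 86 nuclear genes. They took 8.04 and 9.76% of the library's FPKM with both compounds, 14.9 and 10.8% with A-485, 8.42 and 10.4% with I-CBP112, and 11.1 and 8.16% with DMSO. Group means were 8.90 ± 1.22% with both compounds, 12.9 ± 2.94% with A-485, 9.43 ± 1.43% with I-CBP112 and 9.62 ± 2.07% with DMSO. The I-CBP112 libraries lay between the DMSO libraries, and those with both compounds and with A-485 overlapped them. The nuclear genes took 3.67 and 4.05% with both compounds, 3.21 and 3.67% with A-485, 3.29 and 3.61% with I-CBP112, and 3.30 and 3.59% with DMSO. Both libraries with both compounds exceeded both DMSO libraries in this share, at 3.86 ± 0.268% against 3.45 ± 0.208%, while the 2 single treatments, at 3.44 ± 0.325% with A-485 and 3.45 ± 0.224% with I-CBP112, overlapped DMSO. These shares follow the library total alone, on which scale the median log2 fold change with both compounds was 0.25 for all genes and 0.23 for the nuclear members. In scaled FPKM, which the tests use, the nuclear sum was 33462 and 40951 with both compounds, 28607 and 32990.4 with A-485, 31164 and 40169 with I-CBP112 and 39393 and 38588 with DMSO. On that scale both compounds and I-CBP112 spanned DMSO, and A-485 lay wholly below it. Sums over chosen genes were given no test. A bulk library cannot tell fewer cells of a type from less RNA per cell.

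**Figure D1:**
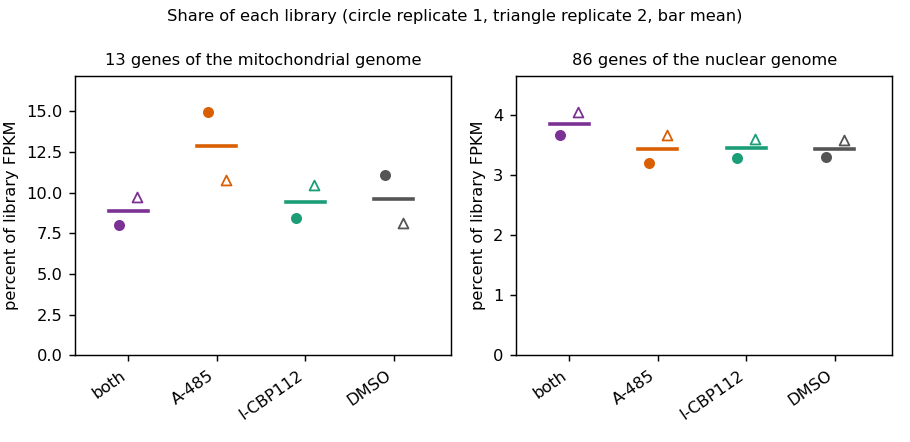
Percent of each library's FPKM (y axes) held by the 13 genes of the mitochondrial genome (left) and the 86 nuclear genes (right), by group (x axes), with circles for replicate 1, triangles for replicate 2 and bars for the mean of 2. The mitochondrial share ran from 8.04 to 14.9% and was highest in A-485 replicate 1, and the nuclear share ran from 3.21 to 4.05%.

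Mitochondrial transcripts spanned a wide range of levels per length. MT-ATP8, a short subunit of the ATP synthase membrane sector, was at the top in every library, with 12192 and 18966 scaled FPKM with both compounds, 26047 and 19406 with A-485, 14501 and 22509 with I-CBP112 and 26309.7 and 16331 with DMSO. MT-ND6, a complex I subunit and the only protein gene on the light strand, was at the bottom with 435 and 265 with both compounds, 746 and 408 with A-485, 479 and 378 with I-CBP112 and 512 and 356 scaled FPKM with DMSO. The sources used here do not give the strand setting of the counting, and without it fragments of MT-ND6 cannot be told from antisense RNA. The value of MT-ATP8 shares sequence with its neighbour. The gene has 207 bases, and its last 46, or 22.22%, are also the first bases of MT-ATP6, so that fragments there belong to either. The shared bases are in capitals in the GENCODE sequence from the mitochondrial chromosome of GRCh38, shown because they bear on the highest value of the set.
MT-ATP8: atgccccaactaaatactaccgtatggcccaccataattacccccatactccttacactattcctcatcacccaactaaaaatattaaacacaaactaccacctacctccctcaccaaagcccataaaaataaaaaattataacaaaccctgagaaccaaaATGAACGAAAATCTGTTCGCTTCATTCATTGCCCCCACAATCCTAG
Likewise MT-ND4L, of 297 bases, ends in 7 bases of MT-ND4. MT-ATP8 at 207 bases and MT-ND4L at 297 are not much longer than the 200 bases assumed here for a fragment. FPKM divides by length, so their levels cannot be ranked firmly against those of longer genes. The effect of length on these values was not tested. Annotated nuclear copies of mitochondrial genes, 394 in GENCODE, were not among the genes of the table. The sources used here do not say how fragments that match both were treated.

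Limma on scaled FPKM called no mitochondrial gene in any of the 7 comparisons, with or without the replicate block, a fit that takes the replicate number as a term. Against DMSO, 0 of 13 had an unadjusted p under 0.05 (limma) with any treatment, and voom on approximate fragments called 0. With both compounds all 13 log2 fold changes lay below 0, from -0.58 for MT-ND2 to -0.17 for MT-CO1, with a median of -0.33 where the median of all genes was 0.04. With A-485 the median was 0.12 and 3 of 13 lay below 0, and with I-CBP112 it was -0.20 with 10 of 13 below 0. Across 4 ways of scaling, the median of these genes relative to all genes was -0.38 to -0.16 with both compounds, 0.11 to 0.25 with A-485 and -0.22 to -0.20 with I-CBP112. On values as deposited, where the median of all genes was 0.58 with both compounds, 0 of 13 lay below 0 in that treatment. Leaving out each library gave medians from -0.64 to -0.09 with both compounds. With A-485 the sign turned without A-485 replicate 1 (-0.11) or DMSO replicate 2 (-0.14), and with I-CBP112 without I-CBP112 replicate 1 (0.11) or DMSO replicate 1 (0.11).

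These medians joined replicates that did not move alike. Replicate 1 with both compounds lay below DMSO replicate 1 at all 13 genes, with a median log2 difference of -0.79, whereas replicate 2 lay above DMSO replicate 2 at 11 of 13, with a median of 0.14. I-CBP112 showed the same pattern, with -0.78 and 0 of 13 above in replicate 1, and 0.34 and 13 of 13 above in replicate 2. For A-485 the medians were 0.09 and 0.16, with 8 and 11 of 13 above 0, and 8 genes lay above in both replicates. Within groups, replicate 1 exceeded replicate 2 at 13 of 13 genes with A-485 (median 0.42) and with DMSO (0.41), and at 2 of 13 with both compounds (-0.54) and with I-CBP112 (-0.63). The gap between replicates of a group was thus as large as the difference between groups. For MT-CO1, the catalytic subunit of complex IV, values were 10179.5 and 8727 scaled FPKM with both compounds, 18374 and 9108 with A-485, 12478 and 9550.4 with I-CBP112 and 14964 and 7546 with DMSO. MT-CYB, the mitochondrial subunit of complex III, had 3969 and 5785 with both compounds, 7626 and 5546 with A-485, 3903 and 6296 with I-CBP112 and 6591 and 4952 with DMSO. Treated and DMSO values overlapped at both genes with each treatment. MT-ND2, a proton-pumping subunit of complex I, had 2473 and 4133 with both compounds against 5404 and 4216 with DMSO, and it was the 1 of the 13 whose values with both compounds lay wholly below those with DMSO. That is 7.69% of the 13, where 26.5% of all genes lay wholly below.

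**Figure D2:**
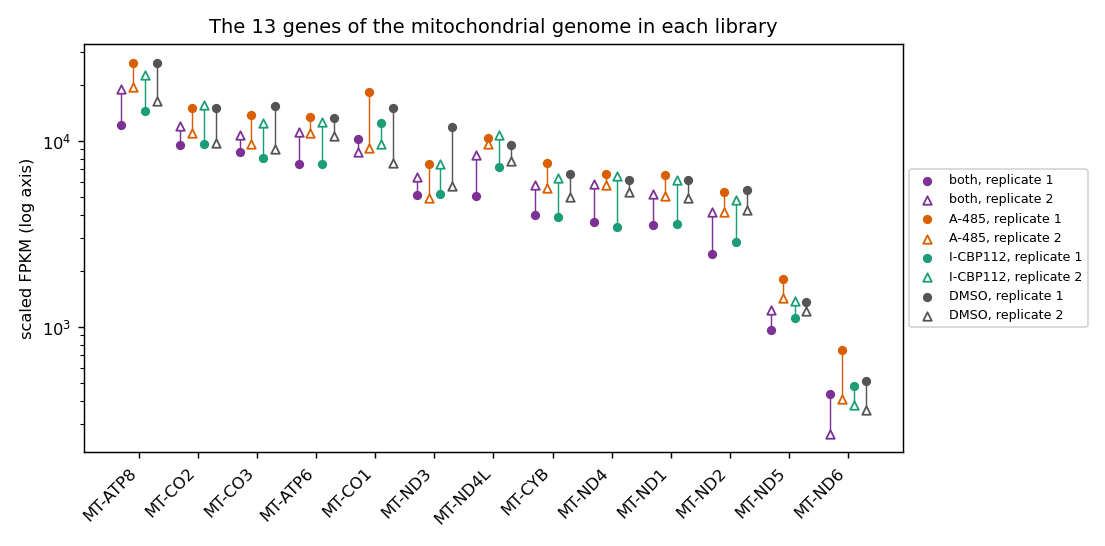
Scaled FPKM (log axis) of the 13 mitochondrial genes (x axis, in order of mean level with DMSO) in each of the 8 libraries, with filled circles for replicate 1, open triangles for replicate 2 and a line joining the 2, coloured by group. At MT-CYB, MT-ND1, MT-ND2 and MT-ND4 the circles lie under the triangles with both compounds and I-CBP112 and over them with A-485 and DMSO.

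The levels of the remaining mitochondrial genes lay between those of MT-ND6 and MT-ATP8. Cytochrome oxidase subunit MT-CO2 had 9513 and 12009 scaled FPKM with both compounds, 14980.1 and 10952 with A-485, 9555 and 15572 with I-CBP112 and 14991 and 9744 with DMSO. Its partner MT-CO3 had 8697 and 10749 with both compounds, 13759 and 9631 with A-485, 8073 and 12434 with I-CBP112 and 15406 and 9026 with DMSO. Both overlapped DMSO in every treatment. For MT-ATP6, the proton-channel subunit of the synthase, values were 7495 and 11112 with both compounds, 13439 and 10938 with A-485, 7471 and 12629.6 with I-CBP112 and 13255 and 10559.7 with DMSO. Of the complex I genes, MT-ND1, MT-ND3, MT-ND4 and MT-ND4L averaged 5533, 8777, 5707 and 8647 scaled FPKM with DMSO, and MT-ND5 averaged 1285. MT-ND5 was at 1800.4 and 1423 with A-485 against 1355 and 1215 with DMSO, and MT-ND4L was at 10356 and 9590.1 against 9501 and 7794. These were the 2 mitochondrial genes whose A-485 libraries lay wholly above DMSO, or 15.4% of the 13, where 26.7% of all genes did. MT-ND4, which shares bases with MT-ND4L, overlapped DMSO, at 6602 and 5754 scaled FPKM with A-485 against 6134 and 5279.

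Among the 80 nuclear genes, 40 lay below DMSO with both compounds, 67 with A-485 and 52 with I-CBP112 in scaled FPKM, and on values as deposited 3, 18 and 46 did. With A-485 the median log2 fold change in scaled FPKM was -0.32, and 49.5% of all genes tested lay below 0. In both replicates 59 of 80 lay below DMSO of the same number, or 73.8%, against 37.4% of all genes, and the medians were -0.41 in replicate 1 and -0.20 in replicate 2. As each library was left out the median stayed between -0.38 and -0.21, with 54 to 72 genes below 0. This is a position relative to other genes: scaled to the library total alone the median was 0.02 with 38 of 80 below 0, while that of all genes was 0.31. Across 4 ways of scaling the nuclear median relative to all genes was -0.33 to -0.19. Few single genes were called. Limma called 0 of 93 members with A-485, where 4.44% of all genes were called, 1.26% as higher and 3.18% as lower, and 16 members, or 17.2%, had an unadjusted p under 0.05, where 25.6% of all genes did. With the replicate block 8 members were called, 2 higher and 6 lower, which is 8.60% of them, against 13.7% of all genes, 4.53% higher and 9.12% lower. Voom on approximate fragments called 4 members, where it called 15.8% of all genes, and with the block 32 of 93, where it called 34.7%. Treated and DMSO libraries did not overlap at 39 members, 5 above and 34 below, or 41.9%, where 52.6% of all genes did not, 26.7% above and 25.9% below.

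With both compounds the nuclear median in scaled FPKM was 0.00, with 40 of 80 below 0. The replicates pulled opposite ways, since the median was 0.11 with 28 below 0 without replicate 1 of the group with both compounds, and -0.18 with 58 below 0 without replicate 2 of the group with both compounds. Under total scaling 19 of 80 lay below 0, with a median of 0.23 where that of all genes was 0.25, and on values as deposited the median was 0.74 where that of all genes was 0.58. Limma called 1 member, ATP5MC1, as lower, or 1.08%, where 10.6% of all genes were called, 3.49% as higher and 7.10% as lower. With the replicate block 6 were called, 4 higher and 2 lower, or 6.45%, where 20.0% of all genes were called, 7.99% as higher and 12.0% as lower. Voom called 1 of 93, where it called 19.4% of all genes, and with the block 13, where it called 36.3%. Members without overlap between treated and DMSO libraries numbered 24, with 7 above and 17 below, or 25.8% against 55.5% of all genes, 29.0% above and 26.5% below. In this cell line the same treatment brought KLK3, the prostate-specific antigen gene, to 51.5 and 50.6 scaled FPKM against 2244 and 1997 with DMSO (log2 fold change -5.35, limma, adjusted p = 2.11e-05). MYC, a transcription factor of growth genes, fell to 19.1 and 14.7 against 243 and 197 (-3.63, limma, adjusted p = 0.000126). Every nuclear member other than NDUFA13 and ATP5MC1 had a log2 fold change within 1 of 0 with both compounds.

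With I-CBP112 alone no member was called by limma, with or without the block, and none by voom, with or without the block, while 2 members, COX7A2L and NDUFC1, had an unadjusted p under 0.05. For all genes these shares were 0.00% called and 11.1% under an unadjusted p of 0.05, and voom with the block called 4.51% of all genes. The nuclear median was -0.11, at -0.27 in replicate 1 and 0.06 in replicate 2, with 52 of 80 below 0. Its sign turned without I-CBP112 replicate 1 (0.05), and under total scaling with all libraries it was 0.03 with 35 of 80 below 0, where the median of all genes was 0.13. Values of 15 members did not overlap with DMSO, 2 above and 13 below, or 16.1% against 37.4% of all genes, 18.8% above and 18.7% below.

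**Figure D3:**
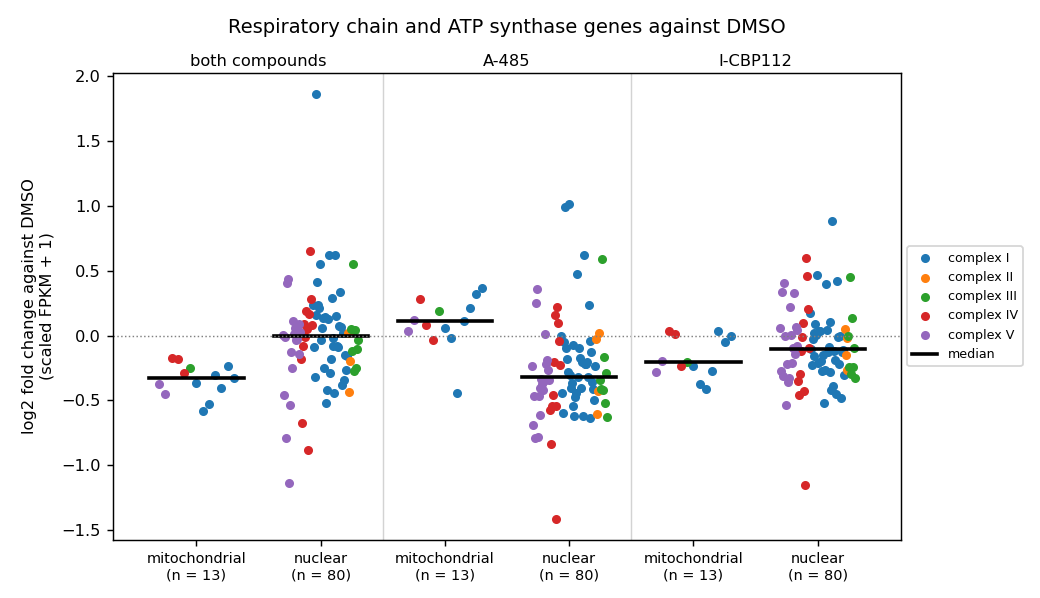
Log2 fold change against DMSO (y axis) of each of the 93 members tested, for both compounds, A-485 and I-CBP112, with 13 mitochondrial and 80 nuclear genes in separate columns, colours for complexes I to V and bars for medians. Medians were -0.33 and 0.00 with both compounds, 0.12 and -0.32 with A-485, and -0.20 and -0.11 with I-CBP112, mitochondrial before nuclear.

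Set directly against A-485, both compounds gave positive log2 fold changes for most nuclear genes and negative ones for the mitochondrial genes. The nuclear median was 0.24, with 71 of 80 above 0, and 61 of 80 lay above in both replicates, or 76.2%, against 37.8% of all genes. It was 0.09 with 25 below 0 without replicate 2 of the group with both compounds, and 0.42 with 4 below 0 without replicate 1 of the group with both compounds. The mitochondrial median was -0.44 with 13 of 13 below 0, at -0.85 in replicate 1 and 0.02 in replicate 2. Relative to all genes and across the 4 scalings, the nuclear median was 0.21 to 0.29 and the mitochondrial -0.47 to -0.39. Limma called 0 members here, with or without the block, where 0.817% and 1.34% of all genes were called. Of the members 4 had an unadjusted p under 0.05, or 4.30% against 12.2% of all genes, and voom called 0, where it called 2.69% of all genes, or 5 with the block, where it called 9.69%. Against I-CBP112, both compounds gave medians of 0.07 for nuclear and -0.19 for mitochondrial genes (relative to all genes, 0.05 to 0.23 and -0.21 to 0.01 across scalings) and 0 calls, where 2.23% of all genes were called, or 5.79% with the block. Both signs turned with single libraries: the nuclear median was -0.08 without replicate 2 of the group with both compounds and -0.08 without I-CBP112 replicate 1, and the mitochondrial one 0.07 without replicate 1 of the group with both compounds and 0.16 without I-CBP112 replicate 2. There 1 member had an unadjusted p under 0.05, or 1.08% against 15.7% of all genes, and voom called 0, against 4.81%, or 3 with the block, against 14.8%. Between A-485 and I-CBP112 the nuclear median was -0.23, with 64 of 80 below 0, and -0.24 to -0.09 relative to all genes across scalings, although on values as deposited 6 of 80 lay below 0. That median was -0.03 with 41 below 0 without I-CBP112 replicate 2, -0.05 with 49 below 0 without A-485 replicate 1, and -0.04 with 43 below 0 under total scaling. Limma called 0 members, where 0.859% of all genes were called, with 1 at an unadjusted p under 0.05, or 1.08% against 14.3%, and voom called 0, against 2.53%, or 3 with the block, against 10.7%. With the block it called 1, ATP5F1C, the gamma subunit that turns inside the synthase head, where 2.60% of all genes were called. ATP5F1C had 109 and 169 scaled FPKM with A-485 and 189 and 299 with I-CBP112 (log2 fold change -0.80; limma, adjusted p = 0.373, and 0.0306 with the block).

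The interaction sets the change with both compounds against the sum of those with each alone, and it was above 0 at 69 of 80 nuclear members. It lay below 0 at 11, or 13.75%, where 47.4% of all genes did. Under total scaling it lay below 0 at 30 of 80, with a median of 0.15 where that of all genes was -0.19. On values as deposited it lay below 0 at 8 of 80. The values that follow are in scaled FPKM unless said otherwise. The nuclear median of the interaction was 0.39, where that of all genes was 0.03. It stayed between 0.18 and 0.49 without any 1 library and, relative to all genes, between 0.33 and 0.41 across scalings. No member was called by limma, with or without the block, or by voom, where limma called 0.00% and 0.0842% of all genes and voom 0.320%. Voom with the block called 1 member, where it called 2.14% of all genes. The members with an unadjusted p under 0.05 were 7, or 7.53%, against 8.94% of all genes. The mitochondrial median of the interaction was -0.24, and its sign turned without replicate 1 of the group with both compounds (0.04) or I-CBP112 replicate 2 (0.11), the range without any 1 library being -0.58 to 0.11. These comparisons share the DMSO and treated libraries, so their medians are not independent of each other.

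Complex I was represented by 37 nuclear genes, from 1.73 to 1207 mean scaled FPKM with DMSO. Their median log2 fold change was 0.02 with both compounds, -0.23 with A-485 and -0.12 with I-CBP112. NDUFB4, an accessory subunit of the membrane arm and the most abundant, had 975 and 974 with both compounds, 1051 and 864 with A-485, 1034 and 1447 with I-CBP112 and 1413 and 1002 with DMSO. It lay wholly below DMSO with both compounds and overlapped it with A-485 and with I-CBP112. NDUFA5, an accessory subunit of the peripheral arm, was at 42.5 and 38.4 with both compounds, 48.7 and 63.9 with A-485, 36.1 and 39.9 with I-CBP112 and 22.3 and 33.0 with DMSO. All 6 treated libraries exceeded both DMSO libraries. With A-485 its log2 fold change was 1.01 (limma, adjusted p = 0.0508), and it was called as higher with the block (limma, adjusted p = 0.021). With both compounds the log2 fold change of NDUFA5 was 0.55 (limma, adjusted p = 0.166).

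NDUFS6, a zinc-binding subunit near the iron-sulfur centres, had 139.5 and 175 scaled FPKM with A-485 against 231 and 257 with DMSO, without overlap (-0.64; limma, adjusted p = 0.148, and 0.0394 with the block). NDUFB3, a membrane-arm subunit, had 137 and 217 with both compounds against 77.2 and 162 with DMSO. The groups overlapped, since replicate 2 was higher in each, and the block called NDUFB3 as higher (0.62; limma, adjusted p = 0.356, and 0.0427 with the block). NDUFB10, another membrane-arm subunit with the lowest change of complex I with both compounds, had 449.9 and 442 against 729 and 564 with DMSO (-0.52; limma, adjusted p = 0.171). NDUFA13, also known as GRIM-19, was listed far below its partner subunits, at 10.2 and 7.06 scaled FPKM with both compounds, 7.05 and 2.35 with A-485 and 2.51 and 0.949 with DMSO. In I-CBP112 replicate 1 it had 6.06 and in replicate 2 it was near 0. Its log2 fold change of 1.86 with both compounds (limma, adjusted p = 0.224, and 0.0461 with the block) comes from low values, and its 3 transcripts in the table are all of a low level.

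Complex II, succinate dehydrogenase, has 4 subunit genes and no mitochondrial one. SDHC, a membrane anchor and the most abundant, had 385 and 494 scaled FPKM with both compounds, 327 and 307 with A-485, 313 and 401 with I-CBP112 and 473 and 385 with DMSO. At SDHC, A-485 lay wholly below DMSO and the other treatments overlapped it. SDHB, the iron-sulfur subunit, had 46.2 and 66.9 with both compounds, 42.8 and 56.6 with A-485, 58.8 and 78.5 with I-CBP112 and 74.2 and 76.9 with DMSO. A-485 and both compounds lay below DMSO at SDHB without overlap. With A-485 its log2 fold change was -0.61, called as lower with the block alone (limma, adjusted p = 0.176, and 0.0417 with the block). SDHA, the flavoprotein, and SDHD, the other anchor, had log2 fold changes from -0.20 to 0.05 with the 3 treatments.

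In complex III, 8 nuclear genes had medians of -0.07 with both compounds, -0.38 with A-485 and -0.17 with I-CBP112. UQCRB, which binds ubiquinone with the core of the complex, was at 463 and 552 scaled FPKM with both compounds, 456 and 591 with A-485, 430.0 and 516 with I-CBP112 and 271 and 439 with DMSO. Both replicates were above DMSO of the same number in every treatment. UQCRB was called as higher with the block, at 0.55 with both compounds (limma, adjusted p = 0.241, and 0.0457 with the block) and 0.59 with A-485 (limma, adjusted p = 0.226, and 0.0478 with the block). UQCRQ, a small membrane subunit and the most abundant nuclear one, had 1224 and 1912 with both compounds, 761 and 1353 with A-485, 993 and 1579.5 with I-CBP112 and 1325 and 1854 with DMSO. A-485 was lower than DMSO in each replicate, although its replicate 2 overlapped DMSO replicate 1, and the block called it (-0.63; limma, adjusted p = 0.335, and 0.0339 with the block). UQCRC1, a core subunit and the lowest of the complex with both compounds, had 206 and 196 against 293 and 202 with DMSO (-0.28; limma, adjusted p = 0.466). CYC1, the haem subunit of complex III that the symbol rule leaves out, had 335 and 246 with both compounds, 356 and 222 with A-485 and 649 and 360.2 with DMSO. CYC1 was called as lower with the block, at -0.75 with both compounds and -0.78 with A-485 (limma, adjusted p = 0.0145 and 0.021 with the block, 0.229 and 0.225 without).

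In complex IV the 12 nuclear genes tested had medians of 0.06 with both compounds, -0.34 with A-485 and -0.11 with I-CBP112. COX7C, a small subunit and the most abundant nuclear one of the complex, had 1884 and 2774 scaled FPKM with both compounds, 1427 and 2332 with A-485, 1824 and 2574 with I-CBP112 and 1563 and 2267 with DMSO, with overlap throughout. Against DMSO of the same number, it was higher in both replicates with both compounds (log2 differences 0.27 and 0.29) and with I-CBP112 (0.22 and 0.18). With A-485 these differences were -0.13 and 0.04. COX7A2L, a COX7A relative that joins complexes III and IV into supercomplexes, was at 145 and 143 with both compounds, 97.4 and 102 with A-485, 104 and 137 with I-CBP112 and 389.7 and 182 with DMSO. All 6 treated libraries were below both DMSO libraries, and the DMSO libraries differed from each other more than those of any treatment. COX7A2L had the largest change of any member with A-485, at -1.41 (limma, adjusted p = 0.054, and 0.0372 with the block). It was -0.87 without DMSO replicate 1 and -1.97 without DMSO replicate 2. With both compounds the log2 fold change of COX7A2L was -0.88 and with I-CBP112 -1.15 (limma, adjusted p = 0.13 and 0.329). COX5A, a matrix-side subunit, had 487 and 603 with both compounds, 450.0 and 520.3 with A-485, 509 and 774 with I-CBP112 and 949.5 and 787 with DMSO. At COX5A every treated library was below both DMSO libraries, and A-485 was called with the block (-0.84; limma, adjusted p = 0.0979, and 0.0434 with the block). COX7A2 had 1394 and 1864 with both compounds and 973 and 1177 with A-485 against 1489.9 and 1634 with DMSO (-0.54 with A-485; limma, adjusted p = 0.249). COX4I1 and COX6A1 had log2 fold changes of -0.57 and -0.46 with A-485 and -0.18 and 0.09 with both compounds, and COX6B1 and COX8A lay between -0.23 and 0.08 in both treatments.

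The ATP synthase held the 1 member called without the block. ATP5MC1, ATP5MC2 and ATP5MC3 encode the same c subunit, which forms the rotating ring in the membrane, behind different import peptides. ATP5MC1 was at 175 and 212 scaled FPKM with both compounds, 276 and 218 with A-485, 288 and 294 with I-CBP112 and 544 and 329.7 with DMSO. All 6 treated libraries lay below both DMSO libraries, and the libraries with both compounds were the lowest. With both compounds ATP5MC1 fell by 1.13 on the log2 scale, ± 0.27 (limma, adjusted p = 0.0355, and 0.0193 with the block). With A-485 its log2 fold change was -0.78 and with I-CBP112 -0.54 (limma, adjusted p = 0.122 and 0.502). The DMSO replicates were apart, and the change with both compounds ranged from -1.51 to -0.79 as each of the 8 libraries was left out, with adjusted p from 0.0162 to 0.198 (limma) and the call kept in 1 of 8, that without DMSO replicate 2. The call was also lost without a filter, on values as deposited, and when only the transcript with the highest mean of a gene was used (limma, adjusted p = 0.0658, 0.973 and 0.297). ATP5MC1 has 6 transcripts in the table. ATP5MC1 has 7 annotated pseudogenes, and the sources used here do not say how fragments were shared with them.

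The paralogues were not called. ATP5MC2, the most abundant of the 3, had 773 and 899.8 scaled FPKM with both compounds, 1031 and 748 with A-485, 956 and 1129 with I-CBP112 and 1529 and 959 with DMSO. Both compounds lay wholly below DMSO at ATP5MC2, at -0.54 (limma, adjusted p = 0.26). ATP5MC3 had 389.7 and 517 with both compounds, 302 and 337 with A-485, 313 and 464 with I-CBP112 and 504 and 475 with DMSO, at -0.12 with both compounds (limma, adjusted p = 0.78). ATP5MC3 overlapped DMSO with both compounds and lay below it with I-CBP112 and with A-485 (A-485, -0.61; limma, adjusted p = 0.172). The differences between the paralogues were not tested.

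**Figure D4:**
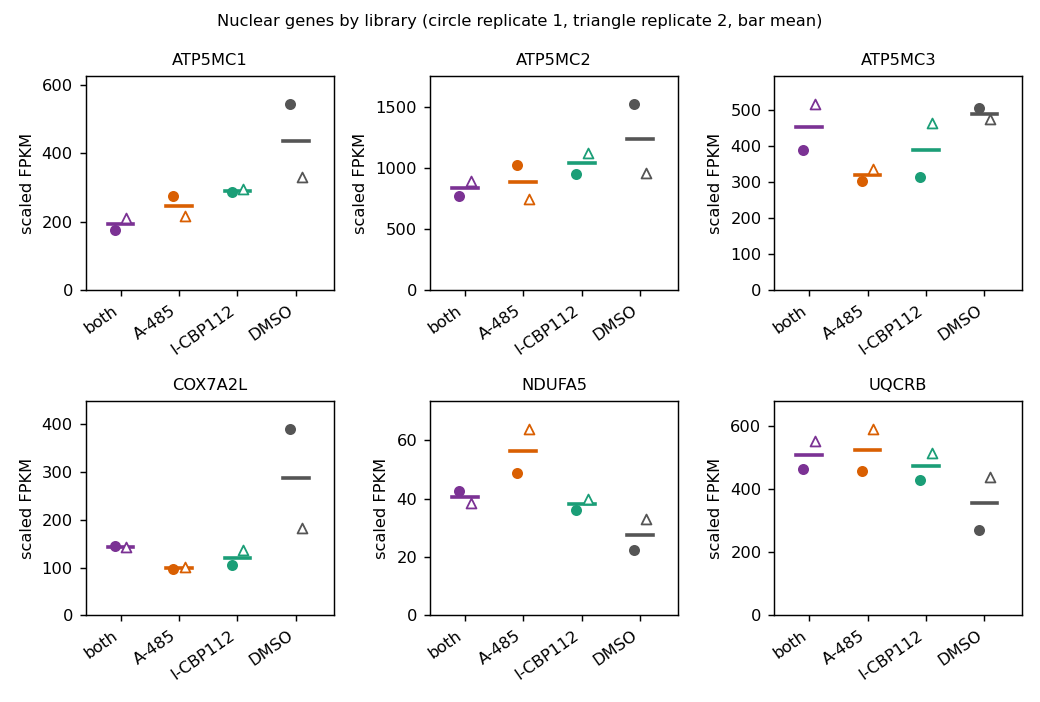
Scaled FPKM (y axes) of 6 nuclear genes by group (x axes), with circles for replicate 1, triangles for replicate 2 and bars for the mean of 2. ATP5MC1 and COX7A2L lie below DMSO and NDUFA5 lies above it in all 6 treated libraries, and the 2 DMSO libraries of ATP5MC1 and COX7A2L are far apart.

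The promoter of ATP5MC1, the gene with the call, is shown beside that of its abundant paralogue ATP5MC2, 300 bases each from RefSeq on GRCh38.p14, from 250 before the start to 50 after it. Capitals mark every match, on either strand, to 6 motifs: TGACGTCA (CREB), CACGTG (E-box), CCAAT, GCATGCGC (NRF1), CCGGAAG (ETS) and AAGATGGC (YY1). The ATP5MC1 window lies at chr17:48892537-48892836 on the plus strand, and the ATP5MC2 window, 1 of its 3, at chr12:53676034-53676333 on the minus strand.
ATP5MC1: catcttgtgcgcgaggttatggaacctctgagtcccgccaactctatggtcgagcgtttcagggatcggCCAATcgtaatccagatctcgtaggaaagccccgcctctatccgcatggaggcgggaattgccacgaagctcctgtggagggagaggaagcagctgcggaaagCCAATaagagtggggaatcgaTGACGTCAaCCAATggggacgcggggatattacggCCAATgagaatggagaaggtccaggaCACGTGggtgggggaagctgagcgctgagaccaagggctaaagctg
ATP5MC2: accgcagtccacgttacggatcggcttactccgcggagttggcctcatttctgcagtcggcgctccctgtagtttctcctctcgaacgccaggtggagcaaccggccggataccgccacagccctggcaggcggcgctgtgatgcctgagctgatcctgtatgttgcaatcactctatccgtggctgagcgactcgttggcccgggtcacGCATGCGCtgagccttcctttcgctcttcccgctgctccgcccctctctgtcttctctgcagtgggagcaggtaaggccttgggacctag
ATP5MC1 held 1 TGACGTCA at -57, 1 CACGTG at 5 and 4 CCAAT, at -181, -78, -48 and -22 from the start, with no overlap between matches. The ATP5MC2 window shown held 1 GCATGCGC at -40. Of its other windows, 1 held CCAAT at -123 and GCATGCGC at -58, and 1 held CCAAT at -165. Promoters were found for 67 of the 86 nuclear members. GCATGCGC was in 20.9% of these and in 3.68% of the 27305 genes of the table of promoters, AAGATGGC in 17.9% and 3.52%, CCGGAAG in 29.9% and 12.2%, and TGACGTCA in 7.46% and 2.25%. CACGTG was in 10.4% and 8.78%, and CCAAT in 37.3% and 39.7%. A gene counted if any of its windows held the motif, and the 27305 genes were not limited to those expressed here. The shares were given no test. A match describes the letters only.

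Other synthase genes were called with the block or not at all. ATP5F1B, the catalytic beta subunit and the most abundant nuclear member of the complex, had 971 and 1301 scaled FPKM with both compounds, 907 and 1004 with A-485, 1128 and 1442 with I-CBP112 and 1679.7 and 1413 with DMSO. It was below DMSO without overlap with both compounds and with A-485, at -0.45 and -0.69 (limma, adjusted p = 0.26 and 0.124). ATP5F1D, the delta subunit of the central stalk, had 466 and 399.8 with both compounds, 507 and 368 with A-485, 627 and 576 with I-CBP112 and 986 and 567 with DMSO. Libraries of both compounds and of A-485 were all below DMSO, and ATP5F1D was called as lower with the block in each, at -0.79 and -0.79 (limma, adjusted p = 0.0273 and 0.0377 with the block, 0.127 and 0.146 without). ATP5IF1, an inhibitor that stops the synthase from running backwards, had 591 and 725 with both compounds against 424 and 550.4 with DMSO, without overlap, and was called as higher with the block (0.44; limma, adjusted p = 0.326, and 0.0483 with the block).

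Upkeep and reading of mitochondrial DNA was followed in 28 genes, all tested. With both compounds 2 of the 28 were lower and 0 higher, where 7.10% of all genes were lower and 3.49% higher. With A-485 1 was lower and 1 higher, where 3.18% and 1.26% of all genes were. At an unadjusted p under 0.05 there were 5 with both compounds and 7 with A-485, where 27.6% and 25.6% of all genes were. With the block 1 was higher and 4 lower with both compounds, where 7.99% and 12.0% of all genes were. TWNK, the helicase that unwinds mitochondrial DNA for replication, was at 4.48 and 4.78 scaled FPKM with both compounds, 6.29 and 5.17 with A-485, 10.1 and 9.21 with I-CBP112 and 15.0 and 12.1 with DMSO. Groups did not overlap at any step, with both compounds lowest and DMSO highest. TWNK fell by 1.36 ± 0.19 on the log2 scale with both compounds and by 1.11 ± 0.19 with A-485 (limma, adjusted p = 0.00473 and 0.0207). The first call held without any 1 library, with adjusted p up to 0.0491 (limma), and the second in 5 of 8 such fits, and the second was lost under total scaling (limma, adjusted p = 0.0596). TFB2M, a factor that opens the mitochondrial promoters for the polymerase POLRMT, was at 6.93 and 9.44 with both compounds, 11.8 and 13.3 with A-485, 15.7 and 14.2 with I-CBP112 and 16.9 and 20.2 with DMSO. It fell by 1.10 ± 0.20 with both compounds (limma, adjusted p = 0.014), and the call held in 7 of 8 fits without 1 library. MTERF2, a mitochondrial DNA-binding protein, was at 24.1 and 29.7 with A-485 against 11.5 and 12.96 with DMSO and rose by 1.07 ± 0.22 on the log2 scale (limma, adjusted p = 0.0397), which held in 3 of 8. LRPPRC and SLIRP, partners that stabilise mitochondrial mRNA, were called as lower with both compounds with the block alone, at -0.77 and -0.79 (limma, adjusted p = 0.0196 and 0.0148 with the block, 0.0575 and 0.283 without). LRPPRC had 19.6 and 23.2 scaled FPKM with both compounds against 30.4 and 45.2 with DMSO. POLRMT, the polymerase itself, and TFAM, which packages the DNA, had log2 fold changes of 0.23 and -0.15 with both compounds (limma, adjusted p = 0.639 and 0.725).

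Makers and users of coenzyme Q and other electron carriers made a list of 20, of which 19 were tested. With both compounds 2 were lower and 0 higher, where 7.10% and 3.49% of all genes were. The block called 4 as lower and 1 as higher with both compounds, where 12.0% and 7.99% of all genes were. COQ8A, an atypical kinase needed for coenzyme Q synthesis, had 24.2 and 17.4 scaled FPKM with both compounds, 30.1 and 18.1 with A-485, 50.2 and 49.9 with I-CBP112 and 62.0 and 42.2 with DMSO. It fell by 1.28 ± 0.29 on the log2 scale with both compounds (limma, adjusted p = 0.0314), which held in 3 of 8 fits without 1 library. PDSS1, which makes the isoprenoid tail of coenzyme Q, had 2.56 and 3.601 with both compounds, 4.40 and 4.59 with A-485, 6.02 and 6.67 with I-CBP112 and 6.71 and 6.58 with DMSO. PDSS1 fell by 0.92 ± 0.19 with both compounds (limma, adjusted p = 0.0243), held in 5 of 8. With A-485 limma called 0 of 19, with 4 at an unadjusted p under 0.05, 4 lower with the block and 3 called by voom, where 4.44%, 25.6%, 9.12% and 15.8% of all genes were.

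Assembly factors, which build the complexes without being part of them, numbered 49, and 48 were tested. With both compounds 1 was lower and 0 higher, where 7.10% and 3.49% of all genes were. COA7, a factor of complex IV, had 10.1 and 10.8 scaled FPKM with both compounds, 13.1 and 14.6 with A-485, 15.1 and 16.1 with I-CBP112 and 18.7 and 16.3 with DMSO. It fell by 0.69 ± 0.17 on the log2 scale (limma, adjusted p = 0.0371), held in 1 of 8 fits without 1 library. UQCC2, a factor of complex III, had 429.8 and 512 with both compounds, 351 and 459 with A-485, 364 and 484.9 with I-CBP112 and 751 and 753 with DMSO. The block called UQCC2 as lower with A-485 (-0.90; limma, adjusted p = 0.066, and 0.0158 with the block). With the block 1 assembly factor was higher and 5 lower with both compounds, where 7.99% and 12.0% of all genes were, and 0 was higher and 2 lower with A-485, where 4.53% and 9.12% were. Without the block 0 were called with A-485, with 6 at an unadjusted p under 0.05 and 4 called by voom, where 4.44%, 25.6% and 15.8% of all genes were.

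**Figure D5:**
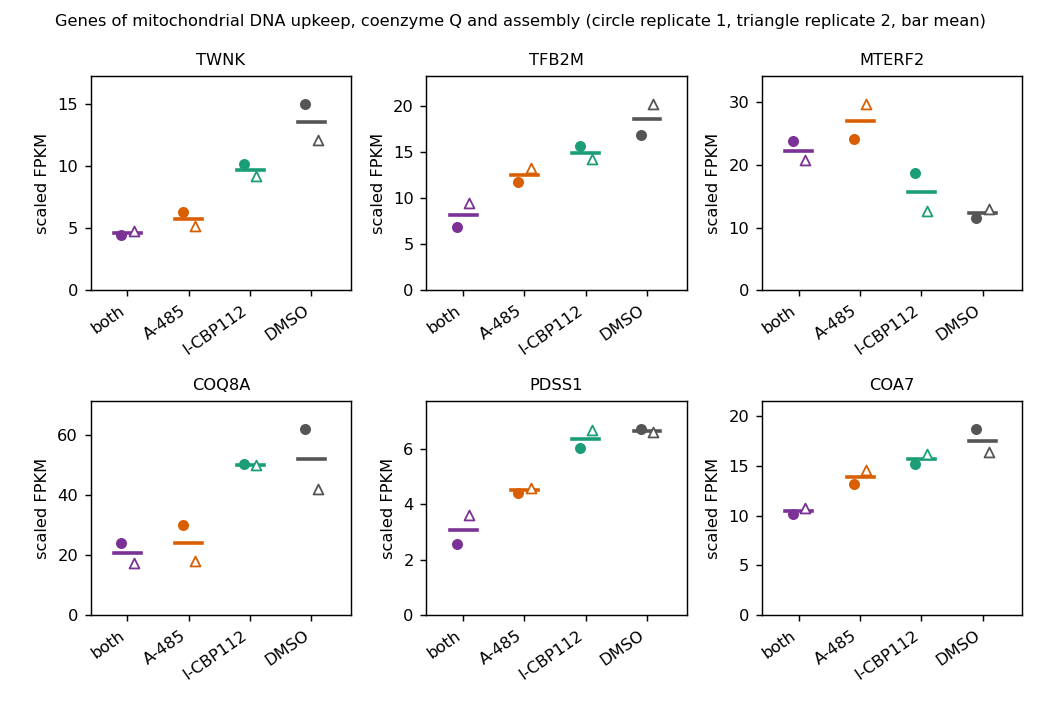
Scaled FPKM (y axes) of TWNK, TFB2M and MTERF2 (mitochondrial DNA), COQ8A and PDSS1 (coenzyme Q) and COA7 (assembly of complex IV) by group (x axes), with circles for replicate 1, triangles for replicate 2 and bars for the mean of 2. TWNK, TFB2M, PDSS1 and COA7 are lowest with both compounds, and MTERF2 is higher with A-485 than with DMSO.

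Regulators of mitochondrial gene expression gave no call without the block. Of 14 listed, 10 were tested, and PPARGC1A, PPARGC1B, ESRRB and ESRRG did not pass the filter. Limma called 0 with both compounds and with A-485, with 4 at an unadjusted p under 0.05 in each, and voom called 2 in each. With both compounds 10.6% of all genes were called, 27.6% had such a p and voom called 19.4%, and with A-485 these shares were 4.44%, 25.6% and 15.8%. ESRRA, a nuclear receptor that drives respiratory genes, had 71.3 and 62.3 scaled FPKM with both compounds, 79.5 and 53.2 with A-485, 108 and 75.0 with I-CBP112 and 132 and 97.1 with DMSO. It was called as lower with the block, at -0.76 and -0.79 (limma, adjusted p = 0.013 and 0.0196 with the block, 0.123 and 0.128 without). PPRC1, a relative of the PGC-1 coactivators, was called as lower with both compounds with the block alone (-0.78; limma, adjusted p = 0.0205 with the block and 0.08 without). Of the 10 tested the block called 2 as lower with both compounds and 1 with A-485, where 12.0% and 9.12% of all genes were. The transcription factor NRF1, whose motif is given above, had a log2 fold change of -0.76 with both compounds and -0.77 with A-485 (limma, adjusted p = 0.132 and 0.147). The regulators given with values here were lower, but of the 10 tested 5 lay below 0 with both compounds and 7 with A-485. Of all genes, 46.6% and 49.5% lay below 0.

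Markers of the cell line moved with the treatments. Of 9 luminal markers 6 were called as lower with both compounds and 6 with A-485, where 7.10% and 3.18% of all genes were. I-CBP112 gave 0 calls among them, where 0.00% of all genes were called. Their summed level averaged 2144 scaled FPKM with both compounds, 2342 with A-485, 3490 with I-CBP112 and 5349 with DMSO. Stromal COL1A1 was higher with both compounds and with A-485, at log2 fold changes of 1.38 and 1.24 (limma, adjusted p = 0.00356 and 0.0118). It was the 1 of 5 stromal markers tested. Neuroendocrine SYP and ENO2, the 2 of 4 tested, were called as higher with both compounds. Of all genes 3.49% were higher with both compounds and 1.26% with A-485. The 5 stromal markers summed to 3.76 to 11.9 scaled FPKM per library, the 4 neuroendocrine ones to 19.2 to 78.9 and the 3 basal ones to 0 to 15.5, and the 5 blood markers stayed at or below 0.322. Their part in the changes of oxidative phosphorylation genes was not tested.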

How the data were processed

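RNA-seq of 8 LNCaP-FGC libraries was measured. The deposited table holds FPKM values per transcript and library; although named as counts, 78.31% of the values are not whole. STAR, Cufflinks, DESeq, DESeq2, hg19 and GRCh37 are named, without versions or roles, per the submitters' processing notes. 

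Of 81591 transcripts, 74209 (90.95%) matched GENCODE 29 by identifier, giving 19431 genes and 95.69 to 96.59% of each library's FPKM, and the 325 transcripts of members were summed by gene. Gene values were scaled to 1e+06 and by a trimmed mean of M values (30% ratio and 5% level trim). Genes at 1 or more in at least 2 libraries (11874) were fitted with limma 3.58.1 in R 4.3.3, with trend and robust options, on log2(scaled FPKM + 1), leaving 4 residual degrees of freedom. P-values were adjusted by Benjamini and Hochberg's method. Fold changes on this scale understate changes of low genes. The script was tested on simulated data. Fragments per library were estimated from the steps between low values of transcripts of at least 3000 bases, assuming fragments of 200 bases; 77.7 to 85.5% of such values came within 0.1 of a whole fragment, too few to recover counts exactly, so voom on these fragments is an alternative only.

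Libraries with the same number share a prefix in the labels' column names. Their differences between replicates correlated in all 6 pairs of groups (r = 0.145 to 0.425 over genes), so the replicate block took the numbers as pairing. The main fit and the statements of overlap between groups leave this pairing out. The block is an alternative, given where it changes a call. Other alternatives changed the pseudocount, filter, scaling, transcript choice and libraries.

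The members and lists were chosen with earlier results of these data known. Named members are the 13 mitochondrial genes, those called with or without the block, the extremes of each complex with both compounds, the most abundant of each complex and paralogous sets. NDUFC1, SDHA, SDHD, POLRMT, TFAM, ESRRA, PPRC1 and NRF1 beyond that rule were named after their values were seen, or for a call with the block. LRPPRC, SLIRP, UQCC2, CYC1, CS, IDH2, SUCLG1, DHODH and COX16 were likewise named for a call with the block alone. SCO2, with 2 gene identifiers, and 95 annotated pseudogenes were left out.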

Additional observations from a re-analysis of the deposited data

How the results depend on the processing

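With both compounds 1 member was called. The count was 6 with the replicate block, 4 with the block when libraries were scaled without the mitochondrial genome, 13 with the block and voom, 0 without a filter, 0 on values as deposited, 0 with the highest transcript only, and 0 to 3 as each library was left out. With A-485, where 0 were called, it was 8 with the block, 7 with the block and scaling without the mitochondrial genome, 1 with a pseudocount of 5, 2 with a filter of 5, 1 under total scaling, 1 with the highest transcript only, 4 with voom, 32 with voom and the block, and 0 to 4 as each library was left out, the 4 being without DMSO replicate 2. Between A-485 and I-CBP112, where 0 were called, it was 1 with the block, 1 with the block and scaling without the mitochondrial genome, and 3 with voom and the block. Voom with the block gave 5 for both compounds against A-485, 3 against I-CBP112 and 1 for the interaction. Both settings that pair the block with another choice were chosen after seeing the data. The block changed no other call of members. The cause of these changes was not tested.

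With the highest transcript only, the mitochondrial share was 11.96% with both compounds, 17.17% with A-485, 12.78% with I-CBP112 and 12.86% with DMSO, and the nuclear share was 4.143% with both compounds and 3.66% with DMSO. The summed FPKM of the mitochondrial genes was the same as before in every group, so their larger share came from a smaller library sum. Total scaling moved the median log2 fold change of all genes to 0.25 with both compounds, 0.31 with A-485 and 0.13 with I-CBP112, and values as deposited to 0.58, 0.35 and 0.05. No member called with or without the block, and no gene of another list called without it, turned in sign under the alternatives run. Medians over members did: those of the mitochondrial genes with both compounds and of the nuclear genes with A-485 were 0.42 and 0.16 on values as deposited, against -0.33 and -0.32. On values as deposited the calls of TWNK, TFB2M, MTERF2, COQ8A, PDSS1, COA7 and ATP5MC1 were all lost, and COQ8A, PDSS1 and COA7 were also lost under total scaling (limma, adjusted p = 0.0651, 0.0578 and 0.124). Among named genes 338 alternative values kept the side of the threshold, 51 gained a call and 51 lost one. Each group had 2 libraries, and those numbered 2 had an estimated 18.0 to 41.6% of fragments on the table. This may limit the precision of low genes, which was not tested.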

Other observations

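The citric acid cycle, which feeds NADH and succinate to the respiratory chain, was followed in 18 genes, all tested. Limma called 0 with both compounds and 0 with A-485, with 4 and 3 at an unadjusted p under 0.05, and voom called 0 and 1. With both compounds 10.6% of all genes were called, 27.6% had such a p and voom called 19.4%, and with A-485 these shares were 4.44%, 25.6% and 15.8%. CS, the citrate synthase that opens the cycle, had 163 and 199.6 scaled FPKM with both compounds, 212 and 203 with A-485, 212 and 237 with I-CBP112 and 267 and 257 with DMSO. With the replicate block it was called as lower with both compounds, at -0.54 (limma, adjusted p = 0.0389 with the block and 0.109 without). IDH2, the mitochondrial NADP-linked isocitrate dehydrogenase, had 80.6 and 58.2 with both compounds, 94.9 and 87.6 with A-485, 85.8 and 75.6 with I-CBP112 and 161 and 91.4 with DMSO. It was likewise called as lower with the block alone, at -0.82 (limma, adjusted p = 0.0259 with the block and 0.112 without). SUCLG1, a subunit of succinyl-CoA ligase, had 40.4 and 52.7 with A-485 against 71.7 and 80.3 with DMSO and was called as lower with the block, at -0.71 (limma, adjusted p = 0.0296 with the block and 0.136 without). The block called 2 of the 18 as lower with both compounds and 1 with A-485, where 12.0% and 9.12% of all genes were.

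DHODH, which makes pyrimidines and passes electrons to coenzyme Q, had 10.9 and 13.3 scaled FPKM with both compounds, 13.01 and 10.4 with A-485, 16.1 and 16.2 with I-CBP112 and 21.1 and 19.0 with DMSO. It was called as lower with the block, at -0.69 with both compounds and -0.73 with A-485 (limma, adjusted p = 0.033 and 0.0374 with the block, 0.0524 and 0.063 without). Of all genes, the block called 12.0% and 9.12% as lower in these treatments. COX16, an assembly factor of complex IV, was at 33.5 and 52.1 with both compounds against 23.2 and 32.9 with DMSO and was the 1 assembly factor called as higher with the block (0.58; limma, adjusted p = 0.0197 with the block and 0.302 without). Of the assembly factors 48 were tested, and the block called 7.99% of all genes as higher.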
